A study of Mus musculus with 21 samples.

Results

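NK cells of regenerating mouse muscle were the cells that carried the NK label of the Harmony integration in the deposited tables. There were 1370 of them among 87822 cells (1.56%), and every one of the 21 mice had at least 1. By number of cells they ranked 17th of the 23 Harmony types, behind T cells (4188 cells) and ahead of B cells (436 cells), the other lymphocytes. The study collected single-cell transcriptomes of dissociated tibialis anterior muscle after injury with notexin, a snake-venom toxin that destroys myofibers. All mice were female C57Bl/6J mice of 20 months without any genetic modification in the labels, with 1 mouse per sample, and the labels name no mice injected with vehicle. Samples of other ages were not analysed here. Uninjured muscle came from 4 mice, and injured muscle from 4 mice killed 1 day after injection (1 dpi), 3 killed at 2 dpi, 4 at 3.5 dpi, 3 at 5 dpi and the last 3 at 7 dpi, where dpi stands for days post-injury. Both tibialis anterior muscles of an injured mouse had been injected, each injured mouse was sampled at 1 time point, and each mouse was injured, killed and processed individually. Mice of different time points were collected on shared days, the day of each mouse is not in the labels used here, and the part of the day in the results was not tested.

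NK cells are innate lymphocytes that kill stressed, infected or transformed cells without prior sensitization and that secrete cytokines such as interferon-gamma. They carry granules of perforin and granzymes, and in the mouse the Ly49 family of receptors restrains or triggers them according to the MHC class I molecules that they meet. The genes given as their markers belong to these functions, since Nkg7 encodes a protein of the cytotoxic granule membrane, Gzma the protease granzyme A, and Klra4 a Ly49 receptor. T cells use much of the same killing machinery, so T cells are the type from which an NK label is hardest to separate. Injured muscle is cleared and rebuilt in the company of neutrophils, monocytes and macrophages, with lymphocytes arriving later.

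The label could not be checked against Nkg7, Klra4 and Gzma, because the tables used here hold totals for each cell and no values of single genes. The authors named the types from canonical markers in clusters built on all samples of their study. What the tables allow is a check of the label against the labels of other integration methods, which is given after the time course. No barcode of an NK cell in 1 sample was an NK barcode in another, and 31 NK barcodes (2.26%) occurred on some cell of another sample, against 2.20% of all cells.

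The depth behind each value was set by the number of cells. A mouse had between 974 and 10556 cells (median 3838) and between 1 and 387 NK cells (median 11). The NK cells of a mouse held between 3344 and 1857008 unique molecular identifiers (UMIs, tags that count captured transcripts), and all NK cells together held 1.07% of the UMIs in the tables. The share of the reads that lay in cells averaged 48.6% in uninjured mice and between 71.6% and 94.6% after injury, and the part of this in the NK values was not tested. Of the 1370 NK cells, 768 (56.1%) came from the 3 mice at 5 dpi, and 676 (49.3%) from 2 of these mice, replicates A and B. Statements on single NK cells therefore rest largely on 5 dpi, and time points were compared with the mouse as the unit.

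NK cells were scarce in uninjured muscle and reached their highest share at 5 dpi. The 4 uninjured mice had 2, 3, 2 and 1 NK cells, which were 0.0882%, 0.0879%, 0.0398% and 0.103% of all cells. At 1 dpi the 4 mice had 5, 1, 21 and 8 NK cells, or 0.172%, 0.0835%, 0.464% and 0.208%. The range at 1 dpi overlapped that of the uninjured mice through replicate B. The 3 mice at 2 dpi had 94, 40 and 10 NK cells, or 0.890%, 0.870% and 0.314%, all above the uninjured mice. At 3.5 dpi there were 11, 10, 161 and 10 NK cells, or 0.351%, 0.380%, 2.39% and 0.257%. In this group replicate C stood far above the other 3 mice, whose shares lay in the range of 1 and 2 dpi. The 3 mice at 5 dpi had 289, 387 and 92 NK cells, or 5.43%, 4.57% and 3.47% of all cells. At 7 dpi the values were 114, 70 and 39 NK cells, or 1.91%, 1.65% and 1.72%. The mice at 5 dpi were above all others, and those at 7 dpi were above the uninjured mice and all mice up to 3.5 dpi except 3.5 dpi replicate C, which exceeded them.

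**Figure D1:**
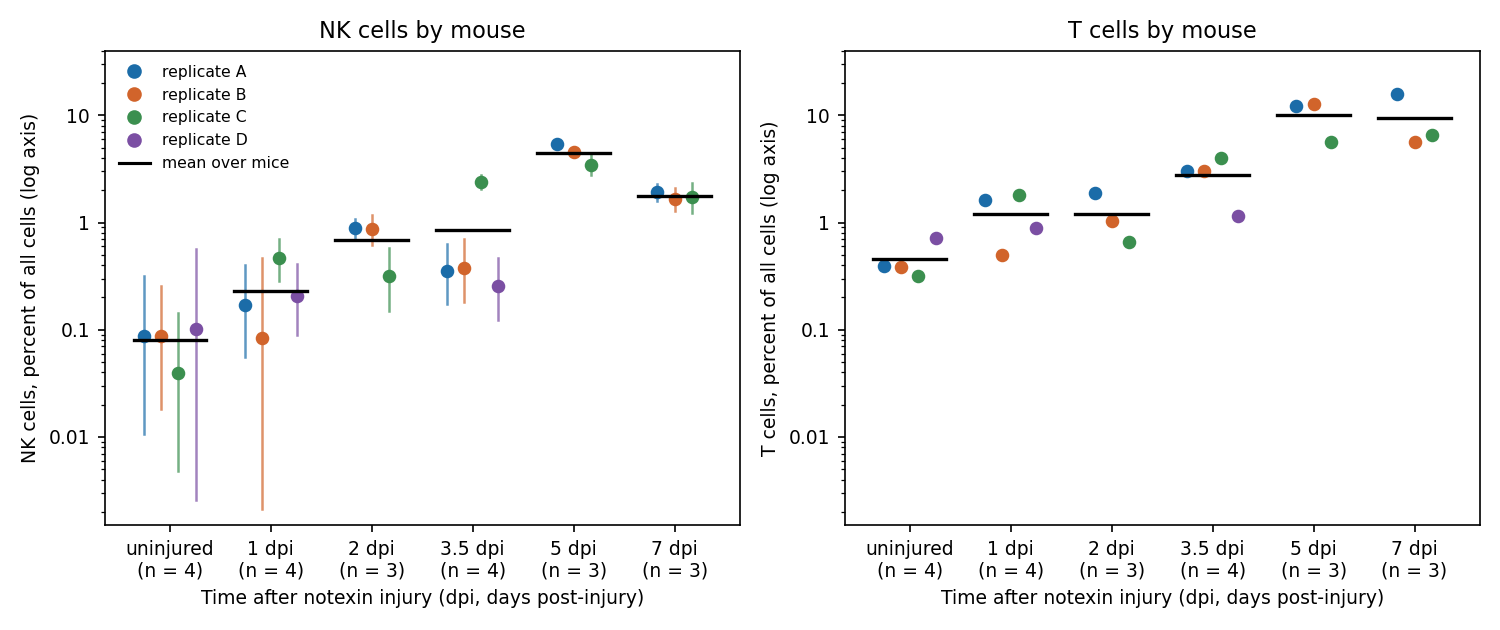
NK cells (left) and T cells (right) as percent of all cells in each mouse, on a log axis, by time after notexin injury. Points are mice, coloured by replicate letter, bars on the left are exact 95% binomial intervals and black lines are means over mice. The 3 NK points at 5 dpi, between 3.47% and 5.43%, lie above those of all other mice, while the T cell points at 5 and 7 dpi overlap.

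The mean NK share was 0.0796% ± 0.0275 (SD, n = 4) in uninjured mice, 0.232% ± 0.163 (SD, n = 4) at 1 dpi, 0.692% ± 0.327 (SD, n = 3) at 2 dpi, 0.844% ± 1.03 (SD, n = 4) at 3.5 dpi, 4.49% ± 0.986 (SD, n = 3) at 5 dpi and 1.76% ± 0.134 (SD, n = 3) at 7 dpi. The share differed between the 6 time points (permutation test of F with 100000 resamples, p = 5e-05, Benjamini-Hochberg adjusted p = 0.000128 over 23 types). A change over time was the rule in these data, since 78.3% of the types passed this test, and 47.8% passed it with a rise as their largest difference from uninjured mice. NK cells were the 1 type of the 23 (4.35%) in which every mouse at 5 dpi exceeded every other mouse. The counts behind the uninjured shares were small, and the exact Clopper-Pearson 95% intervals ran from 0.00482% to 0.144% in replicate C and from 0.0026% to 0.571% in replicate D. By contrast, the interval at 5 dpi replicate C was 2.80% to 4.23%. These intervals cover counting error only.

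With the 17 injured mice set against the 4 uninjured mice, the NK share was 1.48% ± 1.63 (SD, n = 17) against 0.0796% ± 0.0275 (SD, n = 4). The share was above the highest uninjured mouse in 16 of the 17 injured mice, the exception being 1 dpi replicate B. All 17 were above it in dendritic cells, both M2 macrophage types and the inflammatory, patrolling and Cxcl10+ monocytes. The number was 15 in T cells, 14 in neutrophils and 3 in B cells. The NK difference of 1.4 percentage points did not pass the threshold in a two-sided exact permutation test (p = 0.0702, adjusted p = 0.0990), a test that 60.9% of the types passed. On arcsine square root shares the adjusted p of the exact test was 0.0365.

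Numbers of NK cells were then compared between pairs of time points with the quasi-likelihood test of edgeR, in which all 21 mice and 23 types share the estimate of the spread and p-values are adjusted over all types and 9 contrasts. NK cells rose above the uninjured level at 2, 3.5, 5 and 7 dpi, and rose again between 3.5 and 5 dpi, the last step without TMM scaling but not with it. Against uninjured mice the log2 fold change of the NK share was 3.22 (SE 0.79, edgeR adjusted p = 0.00178) at 2 dpi, where 39.1% of types were called higher. It was 3.52 (SE 0.76, edgeR adjusted p = 0.000505) at 3.5 dpi, where 43.5% were called higher and 82.6% in either direction. It was 5.89 (SE 0.80, edgeR adjusted p = 1.09e-06) at 5 dpi and 4.54 (SE 0.79, adjusted p = 3.69e-05) at 7 dpi, where the called share was again 43.5%. At 5 dpi the NK value was the second highest of the 23 types, after patrolling monocytes, and the median over the types was 0.12. At 1 dpi the value was 1.74 (SE 0.79) and did not pass (edgeR adjusted p = 0.0790), with 34.8% of types called higher.

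Between successive time points, the step from 3.5 to 5 dpi was the only one that passed the test. The log2 fold change from 3.5 to 5 dpi was 2.37 (SE 0.63, edgeR quasi-likelihood adjusted p = 0.00395), the highest value of the 23 types, of which 13.0% were called higher. The steps from 1 to 2 dpi (1.47, SE 0.67, edgeR adjusted p = 0.0799) and from 2 to 3.5 dpi (0.31, SE 0.64, adjusted p = 0.726) did not pass, where 4.35% and 8.70% of types were called higher. From 5 to 7 dpi the value was -1.35 (SE 0.68, edgeR adjusted p = 0.114) and did not pass either, in a contrast where 0.0% of types were called higher and 13.0% in either direction, although all 3 mice at 7 dpi were below all 3 at 5 dpi. For 3 against 3 mice the smallest p of an exact permutation test is 0.10, so only the fit that pools the spread could reach the threshold. Scaling by TMM, a normalization that centres on types taken as unchanged, shifted the log2 fold changes of the types by a median of -0.88 at 5 dpi and -0.78 at 7 dpi against uninjured mice, and by -1.16 from 3.5 to 5 dpi. With it the NK values were 5.09, 3.86 and 1.33, and the last no longer passed (edgeR quasi-likelihood adjusted p = 0.0879), although NK cells kept the highest value of the 23 types in that step. The scaling also moved the balance of calls. From 3.5 to 5 dpi, 3 types were called higher and 1 lower without TMM, against 0 and 7 with it, and from 2 to 3.5 dpi 2 and 1 against 4 and 0. Against uninjured mice the counts were 10 higher and 3 lower against 9 and 8 at 5 dpi, and 10 and 0 against 9 and 4 at 7 dpi.

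The NK share at 3.5 dpi rested largely on 1 mouse. Replicate C had 161 of the 192 NK cells of that time point. Without it, the log2 fold change against uninjured mice was 2.13 (SE 0.61, edgeR quasi-likelihood adjusted p = 0.00711) in place of 3.52, and the step from 2 to 3.5 dpi was -1.09 (SE 0.53, adjusted p = 0.106) in place of 0.31. The step from 3.5 to 5 dpi was then 3.77 (SE 0.57, edgeR adjusted p = 6.3e-06). Without this mouse the SE of each contrast was smaller, and 1 dpi against uninjured (adjusted p = 0.0206), 2 against 1 dpi (0.0208) and 7 against 5 dpi (0.0345) also passed in the edgeR test. The step from 1 to 2 dpi passed too without 1 dpi replicate C (edgeR adjusted p = 0.0250) or without 2 dpi replicate C (0.0415).

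Replicate C of 3.5 dpi differed from the other 3 mice of its group in other measures as well. It had 6746 cells against 2631 to 3895, a saturation of 33.5% against 37.0% to 48.0%, and an ambient RNA fraction estimated by SoupX of 0.047 against 0.018 to 0.033. Its T cells were 4.03% of all cells against 1.16% to 3.0%, and its dendritic cells 6.17% against 2.96% to 3.98%. Of the 23 types, 6 lay above the range of the other 3 mice, 9 below it and 8 within it. The part of these measures in the NK share was not tested.

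As a share of immune cells, NK cells took a different course, because uninjured muscle holds few immune cells of any type. Immune cells were counted as the 10 immune types of Harmony, so any immune cells without a Harmony label are left out. They made up 2.71% ± 0.692 (SD, n = 4) of the cells of uninjured mice and 62.3% ± 16.7 (SD, n = 4) at 1 dpi. The NK share of immune cells was 3.51%, 2.36%, 1.85% and 4.17% in the uninjured mice and 0.235%, 0.223%, 0.652% and 0.308% at 1 dpi, so the groups did not overlap and the lower values were those after injury. It was 1.22%, 1.17% and 0.537% at 2 dpi and 0.502%, 0.546%, 3.05% and 0.339% at 3.5 dpi. It was highest at 5 dpi, at 7.64%, 9.55% and 9.11%, and was 6.53%, 6.84% and 5.87% at 7 dpi. Every mouse at 5 and 7 dpi was above every uninjured mouse.

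The NK share of immune cells differed between time points (permutation test with 100000 resamples, p = 1e-05, the smallest that this number of resamples can give, adjusted p = 5e-05 over 10 immune types), a test that 70.0% of the immune types passed. The means were 2.97% ± 1.06 (SD, n = 4) in uninjured mice, 0.354% ± 0.202 (SD, n = 4) at 1 dpi, 0.975% ± 0.380 (SD, n = 3) at 2 dpi, 1.11% ± 1.29 (SD, n = 4) at 3.5 dpi, 8.77% ± 0.999 (SD, n = 3) at 5 dpi and 6.41% ± 0.492 (SD, n = 3) at 7 dpi. NK cells were thus a smaller part of the immune cells at 1 dpi than before injury while their share of all cells was not lower. Pairs of time points were not tested on this denominator.

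**Figure D2:**
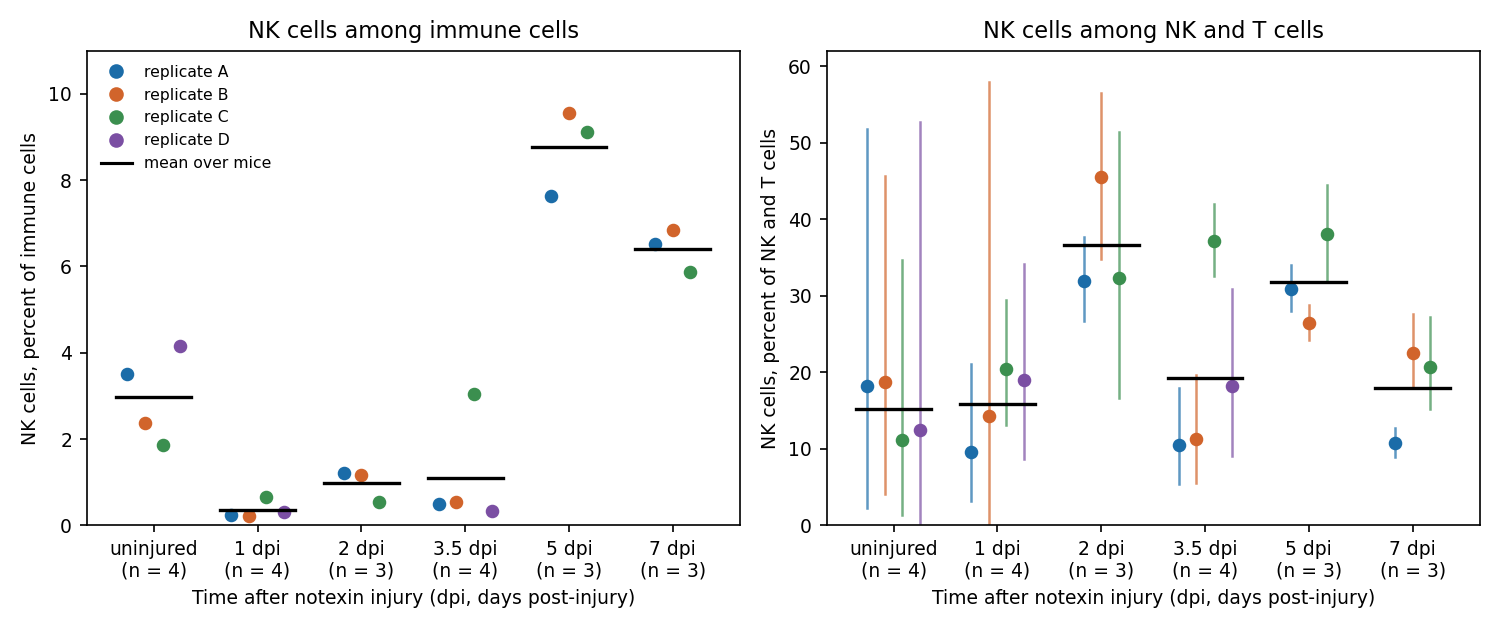
NK cells as percent of immune cells (left) and as percent of NK and T cells (right) in each mouse by time after notexin injury. Points are mice, coloured by replicate letter, bars on the right are exact 95% binomial intervals and black lines are means over mice. The mean share of immune cells is lower at 1 dpi (0.354%) than in uninjured mice (2.97%) and highest at 5 dpi (8.77%), and the share of NK and T cells has high values at 2 and 5 dpi.

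Among lymphocytes, NK cells were most frequent at 2 and 5 dpi. NK cells as a share of NK, T and B cells were 7.65% ± 0.982 (SD, n = 4) in uninjured mice, 12.5% ± 4.03 (SD, n = 4) at 1 dpi, 27.7% ± 1.34 (SD, n = 3) at 2 dpi, 16.3% ± 12.2 (SD, n = 4) at 3.5 dpi, 30.7% ± 5.49 (SD, n = 3) at 5 dpi and 16.9% ± 5.74 (SD, n = 3) at 7 dpi. The share differed between time points (permutation test with 100000 resamples, adjusted p = 0.00598 over 2 shares). All 3 mice at 2 dpi (26.3% to 29.0%) and all 3 at 5 dpi (25.9% to 36.7%) were above all mice at 7 dpi (10.4% to 21%), at 1 dpi (8.33% to 16.9%) and without injury (6.25% to 8.33%). At 3.5 dpi, replicate C had 34.7% and the other 3 mice 9.73%, 10.6% and 10.3%. B cells, which make antibodies, were between 0.325% and 0.571% of all cells in the mean of every time point, and this share did not pass the time-course test (permutation test, adjusted p = 0.851). Their part of the lymphocytes was nevertheless very unequal, at 48.0% ± 8.25 (SD, n = 4) in uninjured mice and 3.43% ± 1.15 (SD, n = 3) at 5 dpi, so the NK share of lymphocytes moved with B cells as well as with T cells.

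Against T cells alone, with the Harmony labels, the high values were again those of 2 and 5 dpi, but uninjured muscle was no longer lowest by a wide margin. The mean NK share of NK and T cells was 15.1% ± 3.89 (SD, n = 4) in uninjured mice, 15.8% ± 4.90 (SD, n = 4) at 1 dpi and 18.0% ± 6.37 (SD, n = 3) at 7 dpi, and these groups overlapped. NK cells were 18.2%, 18.8%, 11.1% and 12.5% of NK and T cells in uninjured mice and 9.62%, 14.3%, 20.4% and 19.0% at 1 dpi. They were 32.0%, 45.5% and 32.3% at 2 dpi and 10.5%, 11.2%, 37.2% and 18.2% at 3.5 dpi. They were 30.9%, 26.4% and 38.0% at 5 dpi and 10.7%, 22.5% and 20.7% at 7 dpi. With these labels the groups at 2 and 5 dpi overlapped each other and lay above those of 7 dpi, 1 dpi and uninjured mice. The separation from 1 dpi did not hold with the labels of BBKNN, another integration method. By these, the mice at 1 dpi had 33.3%, 50.0%, 18.7% and 21.3%, the first 2 from 5 and 1 NK cells. They overlapped 2 dpi (37.8% to 52.6%) and 5 dpi (31.0% to 40.2%), which stayed above 7 dpi (16.3% to 26.2%) and uninjured mice (12.5% to 20.0%). Over the 19 mice with at least 10 NK and T cells, the share differed between time points at an adjusted p of 0.0362 (permutation test with 100000 resamples, adjusted over 2 shares). The call was lost in the permutation test without uninjured replicate C (adjusted p = 0.0559), 2 dpi replicate A (0.0565), B (0.107) or C (0.0576), 3.5 dpi replicate D (0.0529), or 5 dpi replicate A (0.0603) or C (0.0679). It was also lost with the BBKNN labels of NK and T cells (permutation test, adjusted p = 0.0562) and with the replicate letter as a block (0.0604). It was kept, at an adjusted p of 0.00245 in the same permutation test, without 3.5 dpi replicate C.

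T cells, the other cytotoxic and helper lymphocytes of the tissue, also had their highest mean at 5 dpi, and at 7 dpi their 3 mice were widely spread. T cells were 0.454% ± 0.180 (SD, n = 4) of all cells in uninjured mice, 2.80% ± 1.2 (SD, n = 4) at 3.5 dpi, 10.2% ± 3.92 (SD, n = 3) at 5 dpi and 9.41% ± 5.69 (SD, n = 3) at 7 dpi. The mean at 7 dpi rested on replicate A (16.0%), and without it was 6.13%, from mice with 5.68% and 6.58%. In the edgeR quasi-likelihood test their log2 fold change was 4.56 (SE 0.60, adjusted p = 7.52e-07) at 5 dpi against uninjured mice, 1.86 (SE 0.53, adjusted p = 0.00624) from 3.5 to 5 dpi and -0.11 (SE 0.56, adjusted p = 0.887) from 5 to 7 dpi. With TMM the T cell step from 3.5 to 5 dpi was 0.78 (SE 0.65, edgeR adjusted p = 0.351) and no longer passed, as with DESeq2 (1.32, SE 0.59, adjusted p = 0.0505), and that from 5 to 7 dpi was 0.03. Without 7 dpi replicate A the step from 5 to 7 dpi was -0.73 (SE 0.62, edgeR adjusted p = 0.344). Without TMM and over all mice, the value from 5 to 7 dpi was -1.35 for NK cells, with neither past the threshold, and the difference of the 2 values was not tested by itself. The NK cells of the 3 mice at 7 dpi lay between 1.65% and 1.91% of all cells.

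Of the 10 immune types, NK cells, T cells and dendritic cells had their highest mean share at 5 dpi. As a description of the peak, the mean NK share at 3.5 dpi was 18.8% of that at 5 dpi and the mean share at 7 dpi was 39.2% of it. Without 3.5 dpi replicate C the first value was 7.34%. For T cells these values were 27.5% and 92.5%, the second being 60.3% without 7 dpi replicate A and 111% or 106% without 7 dpi replicate B or C, so the time of the T cell peak was not settled between 5 and 7 dpi. For dendritic cells, which present antigen to T cells, the values were 66.8% and 53.4%. Dendritic cells were already high at 1 dpi, at 69.5% of their own maximum, when NK cells were at 5.17%. In the edgeR test, dendritic cells were above uninjured mice at 1 dpi with a log2 fold change of 4.60 (SE 0.59, adjusted p = 4.97e-07) and did not pass from 3.5 to 5 dpi (0.58, SE 0.51, adjusted p = 0.351), where the value was -0.56 with TMM.

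The immune types with the nearest earlier peak had theirs at 3.5 dpi, and their mean shares were lower at 5 dpi. These were patrolling monocytes and both populations of M2 macrophages. The paper describes the patrolling monocytes as high in Fabp5 and negative for Cx3cr1 and Ly6c2. The M2 macrophages are linked to tissue repair, and the 2 populations differ in the chemokine receptor Cx3cr1. Patrolling monocytes were 25.4% ± 0.586 (SD, n = 4) of all cells at 3.5 dpi and 8.21% ± 2.75 (SD, n = 3) at 5 dpi, a log2 fold change of -1.63 (SE 0.38, edgeR quasi-likelihood adjusted p = 0.00118). The Cx3cr1-high macrophages were 14.1% ± 1.26 (SD, n = 4) and 8.58% ± 3.64 (SD, n = 3), a value of -0.72 (SE 0.40, edgeR adjusted p = 0.156). The Cx3cr1-low macrophages were 13.3% ± 0.883 (SD, n = 4) and 7.48% ± 2.64 (SD, n = 3), a value of -0.83 (SE 0.38, edgeR adjusted p = 0.0822). Without TMM the patrolling monocytes alone of these types passed the test for this step, as the 1 type of the 23 (4.35%) that was called lower. With TMM, where 30.4% of types were called lower, the values were -2.78 (SE 0.53, edgeR adjusted p = 4.13e-05) for the monocytes, -1.88 (SE 0.54, adjusted p = 0.00432) for the Cx3cr1-high and -2.0 (SE 0.55, adjusted p = 0.00326) for the Cx3cr1-low macrophages. Both macrophage types also passed the edgeR test without 5 dpi replicate A, at -1.12 (SE 0.44, adjusted p = 0.0450) and -1.16 (SE 0.43, adjusted p = 0.0327). A rise in one share lowers the others, and the tables hold shares of captured cells, not numbers of cells per muscle.

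**Figure D3:**
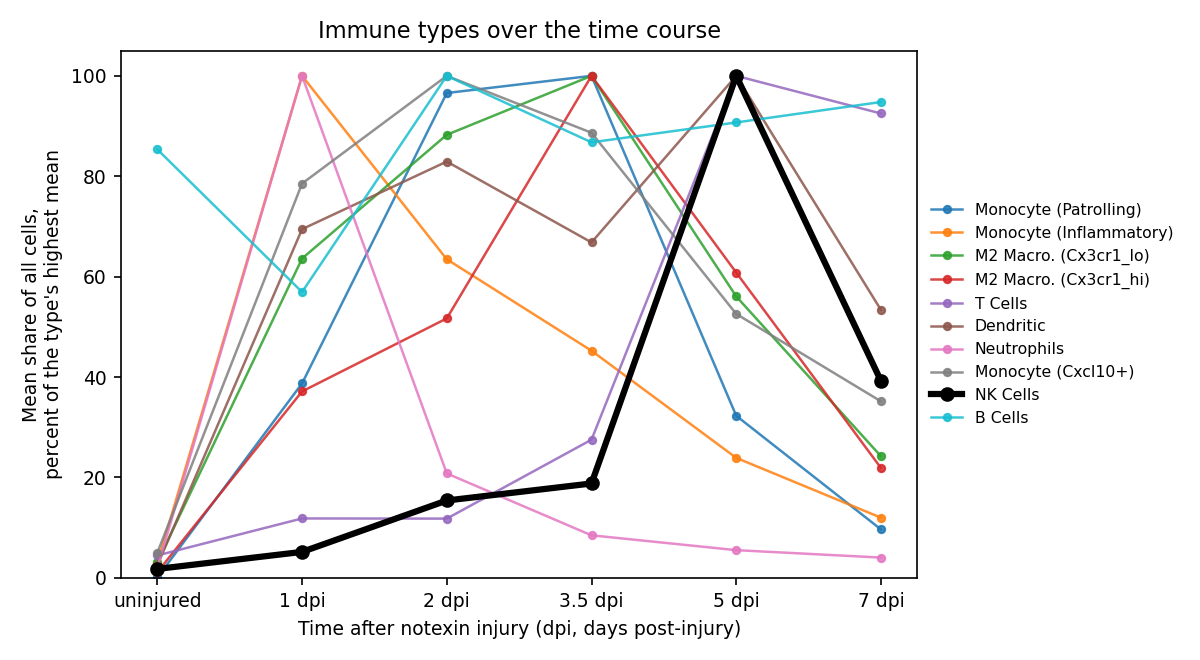
Mean share of all cells of each of the 10 immune types at each time point, as percent of the type's own highest mean, with time points evenly spaced on the x axis. Lines join the means over 3 or 4 mice, and NK cells are in black. NK cells, T cells and dendritic cells peak at 5 dpi, with NK cells at 18.8% of their peak at 3.5 dpi (7.34% without replicate C) and at 39.2% at 7 dpi.

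The number of NK cells per barcode called by the aligner gave the same order of time points as the share of all cells. This denominator does not depend on the later filters on cells, but the NK cells counted had passed them. After the filters, 11683 cells of 32402 barcodes were left in uninjured mice and 12477 of 15967 at 1 dpi. The part of this in the values below was not tested. Per 10000 barcodes there were 3.59, 2.22, 1.76 and 5.08 NK cells in the uninjured mice, 14.3, 4.54, 37.9 and 17 at 1 dpi, and 67.9, 69.1 and 23.3 at 2 dpi. There were 25.8, 27.7, 176 and 16.5 at 3.5 dpi, 429, 348 and 242 at 5 dpi, and 127, 115 and 104 at 7 dpi. With this denominator, chosen after the data were seen, the groups at 1 dpi and without injury overlapped through 1 dpi replicate B alone, and the edgeR quasi-likelihood test of 1 dpi against uninjured passed (log2 fold change 2.80, SE 0.82, adjusted p = 0.00707).

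Most cells with the NK label had it under other integration methods too. Of the 1370 Harmony NK cells, BBKNN, which integrates samples through balanced nearest neighbours, called 1272 (92.8%) NK cells, 80 (5.84%) T cells and 18 (1.31%) another type. Scanorama called 1312 of them NK cells, but its NK label covered 5438 cells, of which 3843 (70.7%) were Harmony T cells. It therefore did not separate NK cells from T cells. All 3 methods gave an NK label to 1232 cells (89.9%). The tables also hold a Harmony label from before a noisy cluster was removed and the samples integrated again. In that label 1336 (97.5%) were NK cells and 27 (1.97%) T cells.

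In the other direction BBKNN was the broader label. It called 1620 cells NK, of which 1272 (78.5%) were Harmony NK cells and 319 (19.7%) Harmony T cells. The disputed cells were therefore mostly T cells by one method and NK cells by the other. Harmony T cells were 25% of the BBKNN NK cells in uninjured mice (2 of 8 cells). Counted over the mice of a time point, they were 5.56% at 1 dpi and 10.5% at 2 dpi, then 21.9% (3.5 dpi), 18.5% (5 dpi) and 27.7% (7 dpi). The T cell label was less stable than the NK label. Of the 4188 Harmony T cells, BBKNN called 3570 (85.2%) T cells, 319 (7.62%) NK cells and 98 (2.34%) stem endothelial cells. The T cell values and lymphocyte shares above rest on the Harmony label unless BBKNN is named.

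Among the 16 mice with at least 5 Harmony NK cells, BBKNN called 100%, 90.5% and 100% of them NK in 3 mice at 1 dpi and 94.7%, 95% and 100% at 2 dpi. The values were 72.7%, 40%, 93.8% and 100% at 3.5 dpi, where replicate B had 4 of 10 cells. They were 91.0%, 93.8% and 91.3% at 5 dpi and 99.1%, 92.9% and 89.7% at 7 dpi. The match of the labels did not differ detectably between time points (permutation test with 100000 resamples, p = 0.442). With the BBKNN label in place of the Harmony label, NK cells were 6.13%, 5.5% and 3.69% of all cells at 5 dpi and 3.07%, 1.86% and 1.68% at 7 dpi, and all mice at 5 dpi were again above all mice at 7 dpi.

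**Figure D4:**
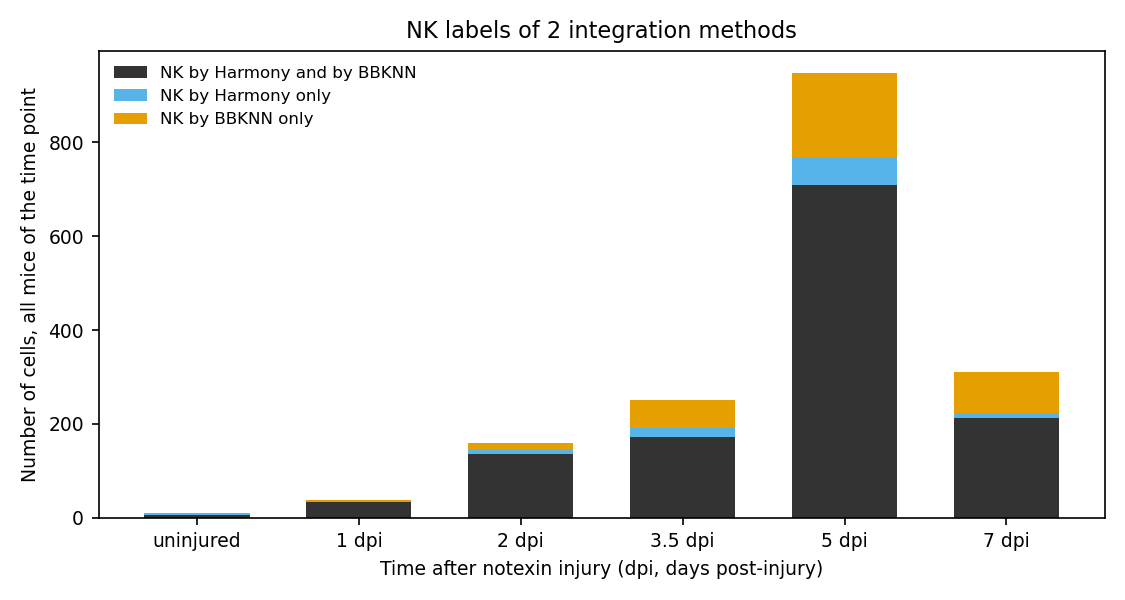
Number of cells called NK by both Harmony and BBKNN, by Harmony only and by BBKNN only, summed over the mice of each time point. At 5 dpi both methods called 710 cells NK, and at every time point the cells called NK by both outnumber the disputed cells.

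The disputed cells differed from the core of the label in size. The 1272 cells called NK by both methods had a median of 4744 UMIs and 1812 genes per cell, and the 3570 cells called T by both had 2940 UMIs and 1276 genes. The 80 cells that only Harmony called NK and BBKNN called T had 3928 UMIs and 1546 genes, between the medians of those sets. The 319 cells that Harmony called T and BBKNN called NK had 6346 UMIs and 2384 genes, above both. Their median DoubletFinder score, the share of artificial doublets among a cell's neighbours, was 0.226, against 0.172 in the shared NK cells and 0.0992 in the shared T cells. The 18 Harmony NK cells that BBKNN gave to no lymphocyte type had 8712 UMIs, 2928 genes, a DoubletFinder score of 0.226 and the lowest ribosomal protein share of these sets, 13.0% of UMIs. These values are medians over cells from several mice and carry no test.

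NK cells were larger in transcript content than T cells and smaller than most other cells. In the 16 mice with at least 5 NK cells, the median number of UMIs per NK cell averaged 4978 ± 1743 (SD, n = 16), that of T cells 3708 ± 952 (SD, n = 16) and that of all other labelled cells 8633 ± 2962 (SD, n = 16). The NK median was above the T cell median in 12 of the 16 mice, and the ratio had a median of 1.39 and a range of 0.716 to 2.33. The 4 mice in which it was lower were the 3 mice at 1 dpi and 2 dpi replicate B. The number of genes behaved alike, with 1799 ± 390 (SD, n = 16) in NK cells and 1482 ± 318 (SD, n = 16) in T cells, and was higher in NK cells in 14 of the 16 mice. Since the labels were built from the same transcripts, differences between labels are given here as a description.

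NK cells had a lower mitochondrial share than T cells in each of these mice. The mitochondrial percent of UMIs, a common measure of cell stress or damage, averaged 6.66% ± 2.26 (SD, n = 16) in NK cells and 8.01% ± 2.21 (SD, n = 16) in T cells, with NK cells lower in 16 of 16 mice by a mean of 1.35 ± 0.697 (SD) percentage points. NK cells were above the other labelled cells in 15 of the 16 mice. In the few NK cells of uninjured mice the medians were 10.5%, 27.3%, 25.3% and 5.54%, from 2, 3, 2 and 1 cells. They bracketed the medians of the other labelled cells of the same mice, which were 16.0%, 18.4%, 16.6% and 8.25%.

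Ribosomal protein transcripts were abundant in NK cells. They took 20.4% ± 2.18 (SD, n = 16) of the UMIs of NK cells, 17.8% ± 4.30 (SD, n = 16) of those of T cells and 10.4% ± 1.09 (SD, n = 16) of those of the other labelled cells. NK cells were above the other labelled cells in all 16 mice. By the median over mice, NK cells ranked second of the 23 types in this share, after muscle stem cells (21.2%), and neutrophils were lowest (3.21%). B cells (19.2%) ranked 3rd and T cells (17.5%) 5th, so a high ribosomal share was common to the lymphocytes. NK cells ranked 16th in UMIs and in genes per cell and 10th in mitochondrial share. In the ribosomal share NK cells exceeded T cells in 14 of the 16 mice, the exceptions being 5 dpi replicate A and 7 dpi replicate C. The ratio had a median of only 1.07 and a range of 0.977 to 5.09. The T cell mean was lowest and most spread at 1 dpi, at 12.9% ± 7.48 (SD, n = 3), against means of 17.2% to 22.1% at later time points.

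**Figure D5:**
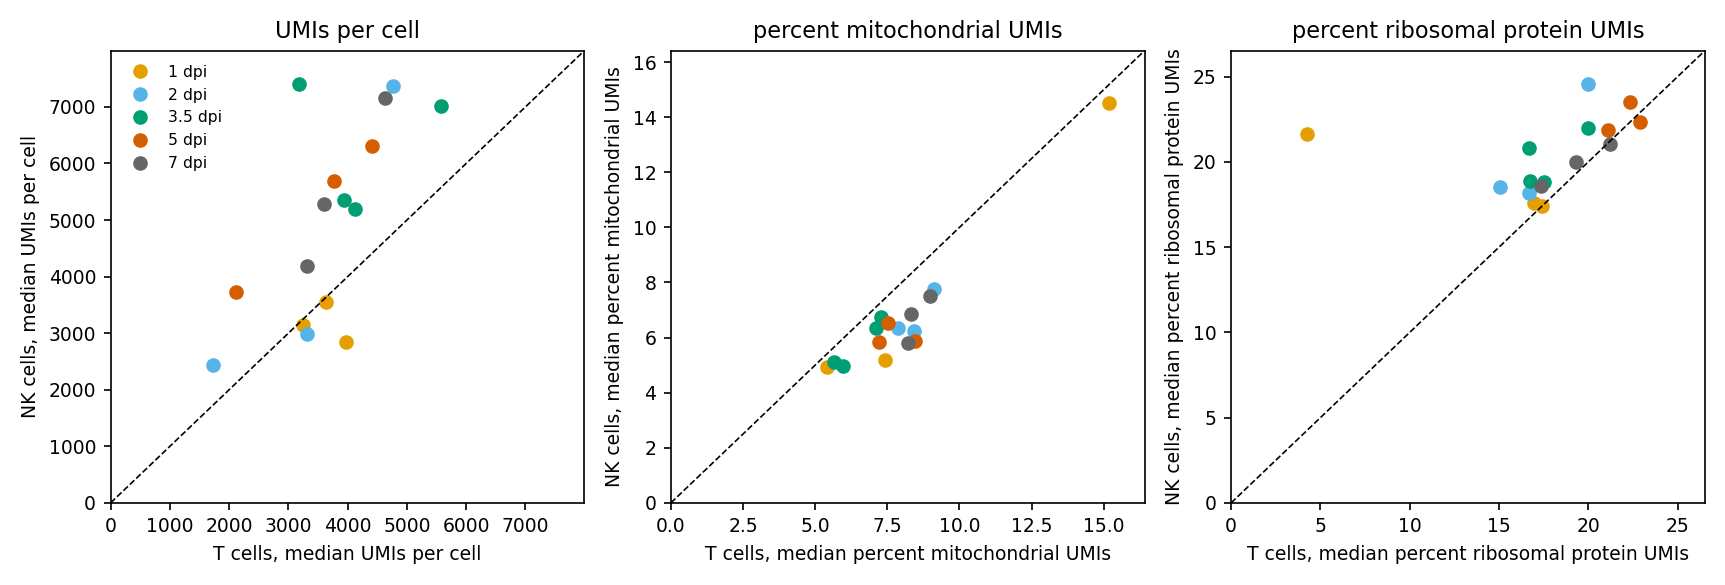
Median of NK cells against median of T cells in each of the 16 mice with at least 5 NK cells, for UMIs per cell (left), percent of UMIs from mitochondrial genes (middle) and percent from ribosomal protein genes (right). Points are mice, coloured by time point, and the dashed line marks equal values. NK cells lie above the line for UMIs in 12 mice, below it for mitochondrial percent in all 16 and above it for ribosomal protein percent in 14.

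Over the time course these per-cell measures of NK cells did not change detectably. None of the 12 measures that could be tested in NK cells passed the threshold (permutation tests with 100000 resamples, adjusted over all types and measures), against 37.9% of the tests over all types, and 1 had an unadjusted p under 0.05. The NK tests covered 16 mice at 1 to 7 dpi, because no uninjured mouse had 5 NK cells. Tests of other types could also hold uninjured mice, with 20 mice in B cells and 21 in capillary endothelial cells. The rates over types thus come from unlike sets of mice and do not show that NK cells were steadier. The median UMIs per NK cell were 3543, 3142 and 2846 at 1 dpi, 2438, 2993 and 7368 at 2 dpi, and 5361, 5193, 7401 and 7018 at 3.5 dpi. They were 5685, 3727 and 6308 at 5 dpi and 4187, 5290 and 7150 at 7 dpi. The groups overlapped except that the mice at 1 dpi were all below those at 3.5, 5 and 7 dpi (permutation test over all time points, adjusted p = 0.193). For the number of genes the adjusted p of the permutation test was 0.129, for the mitochondrial percent 0.986 and for the ribosomal protein percent 0.462, against 30.4%, 65.2% and 56.5% of types called in these measures. Of the other composition measures, the percent of protein-coding UMIs was called in 69.6% of types, and the snoRNA, miRNA and snRNA percents in 0.0% of the types that could be tested.

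The measure of NK cells with an unadjusted p under 0.05 was the DoubletFinder score. It averaged 0.189 ± 0.0269 (SD, n = 3) at 1 dpi, 0.224 ± 0.0964 (SD, n = 3) at 2 dpi, 0.286 ± 0.0641 (SD, n = 4) at 3.5 dpi, 0.155 ± 0.0309 (SD, n = 3) at 5 dpi and 0.129 ± 0.0658 (SD, n = 3) at 7 dpi. The permutation test gave p = 0.0473 and an adjusted p of 0.0980, and 43.5% of types were called in this score. Without 2 dpi replicate A its adjusted p in the permutation test was 0.0483. Without 2 dpi replicate C, whose NK cells had the highest median UMIs of that time point, UMIs (adjusted p = 0.0189) and genes (adjusted p = 0.0172) passed the permutation test. At a fixed number of UMIs the number of genes per NK cell did not pass (permutation test, adjusted p = 0.783).

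NK cells passed filters on cells more often than T cells did. Fewer than 750 genes were detected in 23 NK cells (1.68%), against 254 T cells (6.06%). When only cells with 1000 or more genes, 2000 or more UMIs and a mitochondrial share up to 15% were retained, 1196 NK cells (87.3%), 70.3% of T cells and 75.5% of all cells remained. Over these cells, the time course of the NK share passed the permutation test with an adjusted p of 8.6e-05.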

How the data were processed

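Muscles were dissociated and single cells captured with the 10x Chromium system (version 3 chemistry), 1 library per mouse. The authors aligned reads to mm10 with Cell Ranger (3.1.0 in the submitters' processing notes, which also name Seurat 3.1.5), subtracted ambient RNA with SoupX, removed doublets called by DoubletFinder before deposit, and integrated these samples with others by Harmony, Scanorama and BBKNN. The deposited UMIs per cell are expected counts after this subtraction and need not be whole. The deposited tables also give whole counts of barcodes per sample, percents of UMIs from gene classes as percent values, and the SoupX contamination fraction and DoubletFinder score as a fraction, all as the authors made them. Single-gene values, samples of other ages and spatial data were not used here.

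NK cells were the cells labelled so by Harmony, and the label used for deconvolution was the same in all 1370. Shares of all cells include 3897 cells without a Harmony label in the denominator, which shares of immune cells leave out. The members and lists were chosen with earlier results of these data known. Other types were named by rule: T and B cells, and at least 3 immune types whose mean share peaked with or nearest to that of NK cells. Dendritic cells shared the peak and 3 types tied at 3.5 dpi, so all 4 were named. Groups came from the labels, with the mouse as the unit.

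Time courses were tested by permuting mice 100000 times on F over time points, on arcsine square root shares or on medians over cells (UMIs and genes as log2), with a Benjamini-Hochberg threshold of 0.05. Lymphocyte shares needed 10 cells per mouse, label matches and per-cell measures 5 NK cells. Injured mice were set against uninjured mice with an exact permutation test over 5985 splits. Numbers of cells were compared in 9 contrasts with edgeR's quasi-likelihood test without TMM, adjusted over the contrasts and 23 types, and SEs are those implied by F. Intervals are Clopper-Pearson at 95%. Alternatives covered labels, transformations, TMM, DESeq2, exact tests, filters, denominators, a replicate block and leaving out each mouse, and the scripts were tested on simulated data. Between 1 and 387 NK cells per mouse set the precision.

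Tools were Python 3.11.15, numpy 2.4.6, pandas 2.3.3, scipy 1.17.1, matplotlib 3.10.9, R 4.3.3, edgeR 4.0.16 and DESeq2 1.42.0.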

Additional observations from a re-analysis of the deposited data

Results flagged for a closer look

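There were 3 values that stood apart within their groups of 4 mice, and all came from the NK cells of 1 mouse, 3.5 dpi replicate C. Its NK share was 2.39% of all cells, 3.05% of immune cells and 34.7% of lymphocytes, and in each case the gap to the next mouse was a larger part of the group's range than Dixon's 95% limit for 4 values. In all, 23 groups were checked in this way and 3 exceeded the limit, while chance alone exceeds it in about 1 in 20 groups. The 3 values share their numerator. Among all 23 types as a share of all cells, NK cells were the 1 type past this limit in replicate C. Of its 161 NK cells, BBKNN called 151 (93.8%) NK cells, and their median of 7401 UMIs was the highest of the 16 mice with at least 5 NK cells, against 3174 in its T cells. The depth and ambient RNA values of this mouse stand in the report, and their part in the result was not tested.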

How the results depend on the processing

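The time course of the NK share of all cells passed in all 34 alternatives (adjusted p from 1.43e-06 to 0.00121), as did that of immune cells in 25 (1.67e-05 to 0.00352) and of lymphocytes in 25 (4e-05 to 0.0171), and the match with BBKNN passed in none of 18 (0.0608 to 0.679). Among the 34 alternatives were Scanorama's NK label, which held mostly Harmony T cells, and the sum of NK and T cells. T cells passed this time-course test by themselves (permutation test, adjusted p = 0.000322), so these settings do not bear on NK cells alone. Injured against uninjured mice passed with arcsine square root shares only (exact permutation, adjusted p = 0.0365). In the pairs of time points, exact permutation tests gave an adjusted p of 0.0768 for 2, 3.5, 5 and 7 dpi against uninjured and for 5 against 3.5 dpi, where the raw p of 0.0286 was the smallest that these numbers of mice allow. TMM gave 0.0879 for 5 against 3.5 dpi. DESeq2 gave 0.0359 for 1 dpi against uninjured and for 2 against 1 dpi and 0.0395 for 7 against 5 dpi. The denominator of barcodes, chosen after seeing the data, gave 0.00707 for 1 dpi against uninjured. Leaving out each mouse gave adjusted p in edgeR from 0.0206 to 0.266 for 1 dpi against uninjured, 0.0208 to 0.198 for 2 against 1 dpi, 0.106 to 0.985 for 3.5 against 2 dpi, where the direction reversed without 3.5 dpi replicate C and without 2 dpi replicate C (log2 fold change -0.02), and 0.0345 to 0.210 for 7 against 5 dpi. For the NK share of NK and T cells it gave 0.00245 to 0.107 in the permutation test, BBKNN labels gave 0.0562 and the replicate block 0.0604. The replicate block changed no other call in the comparisons between time points and gave 0.000639 for the time course of the share of all cells. The letters name the mice. In 20 of 48 pairs of samples with the same letter the deviations from group means correlated above 0.1 (mean r -0.0172). Of the 21 samples, 4 correlated best with their own letter. This check gave no sign of pairing by letter, and it cannot show whether mice shared a day. Per-cell measures of NK cells passed in 0 to 2 of the tests when 1 mouse was left out. The sign of the largest difference reversed, without a call, for snoRNA as a mean over cells (permutation test, adjusted p = 0.189), for genes at a fixed number of UMIs (0.783) and for the mitochondrial percent without 1 dpi replicate A (0.234, over left-out mice 0.234 to 1). The causes were not tested. Depth limits the uninjured group most, with 8 NK cells in all.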
